A study of Mus musculus with 9 samples.

Results

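The 9 genes described here are a panel of retinal progenitor and Notch pathway factors that Müller glia keep in the adult eye: Notch1, Hes1, Hes5, Hey1, Sox2, Sox9, Rax, Pax6 and Lhx2. They were taken by symbol, and all 9 were found among the 14194 rows of the table. Ribosome-bound RNA was measured in retinae of mice labelled Aldhl1l-Cre/Ert2+; NuTRAP+, in which tamoxifen-induced Cre under the astroglial promoter Aldh1l1 switches on a ribosome tag. Antibody to GFP then recovers the tagged ribosomes, and every library is of this positive fraction. The 5 ONC libraries come from eyes taken 72 h after a 3 s crush of the optic nerve (animal pools 913/986, 914/92, 938/88, 976/978 and 981/982). The 4 Control libraries come from fellow eyes of the last 4 of these pools, which were left alone or had sham surgery, and the labels do not tell which. Each library pooled 2 retinae, and both groups carried the same Cre and reporter and had tamoxifen and the same anaesthesia. Aldh1l1 is also active in retinal astrocytes, so the fraction can hold their RNA as well. Ages are not given in the labels used here.

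Notch1 is a receptor that is cut when a ligand on a neighbouring cell binds it, and its freed intracellular domain enters the nucleus and joins the DNA-binding protein RBPJ. Together they switch on repressors of the Hes and Hey families, which hold back proneural genes and keep a cell glial or undifferentiated. Sox2 and Sox9 are HMG-box factors, and Rax, Pax6 and Lhx2 are homeodomain factors, which set up the eye field and later stay on in Müller glia. In fish these glia return to a progenitor state after injury and rebuild neurons, whereas in the mouse they rarely do. Pax6 is also made by amacrine and ganglion cells, Sox2 by some amacrine cells, and Notch1 and Hey1 by blood vessels.

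The values are on the log2 scale and relative to a baseline of that gene in control libraries, so 0 marks its usual control value. They hold neither a level that can be set between genes nor the sequencing depth, so the error of each value is taken from the spread between libraries. All 9 genes passed the raw-value filter in both conditions, as did all 13 Müller glia markers. With 2 pooled retinae a library, fewer cells of a type and less RNA per cell cannot be told apart. Y-linked RNA, as the median of 4 genes, stood at -8.02 and -7.92 in ONC 913/986 and ONC 914/92, at -0.17 to 0.13 in the other 3 ONC libraries, and at -1.18 in Control 914/92 against 0.00 to 0.20 in the other 3 Controls. Eyes of the same animals carry the same sex chromosomes, so ONC 914/92 and Control 914/92 go against their shared animal label. Results that rest on the 914/92 pair are also given without it, and differences of named genes that moved by over 1.5 times without these 2 ONC libraries, called the Y-low ONC libraries here, are given without them.

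The upstream stretches of Hes5 and Lhx2 are shown because they hold the letters TGGGAA, the core of the motif that RBPJ binds. RefSeq promoters (GRCm38.p6) matched 5 members, Notch1, Hes5, Sox2, Pax6 and Lhx2, the last 2 with 2 start sites each, and did not match Hes1, Hey1, Sox9 and Rax. The 250 bases before each start were searched for TGGGAA on both strands. The Hes5 stretch holds 2 matches, beginning 226 and 82 bases before the start, and each Lhx2 stretch holds 1, at 230 and 9 bases before. The stretches of Notch1, Sox2 and Pax6 hold no match. Of all 32851 promoters, 21.6% hold at least 1 match and 2.77% hold 2 or more, and a match is a run of letters with no binding measured. Each is printed 5′ to 3′ on the strand of the gene, which is + for all 3, with the matches in capitals (TTCCCA is the motif on the other strand).
Hes5, chr4:154960673-154960922: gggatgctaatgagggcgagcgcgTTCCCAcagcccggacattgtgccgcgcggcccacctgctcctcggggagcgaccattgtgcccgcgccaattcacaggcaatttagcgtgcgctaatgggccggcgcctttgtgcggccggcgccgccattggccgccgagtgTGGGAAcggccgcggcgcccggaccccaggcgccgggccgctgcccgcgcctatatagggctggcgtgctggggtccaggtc
Lhx2, upstream start, chr2:38339031-38339280: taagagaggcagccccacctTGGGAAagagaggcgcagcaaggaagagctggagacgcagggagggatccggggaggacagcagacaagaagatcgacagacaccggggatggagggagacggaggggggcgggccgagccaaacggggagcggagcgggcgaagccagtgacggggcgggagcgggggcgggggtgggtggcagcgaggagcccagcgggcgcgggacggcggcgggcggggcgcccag
Lhx2, downstream start, chr2:38351058-38351307: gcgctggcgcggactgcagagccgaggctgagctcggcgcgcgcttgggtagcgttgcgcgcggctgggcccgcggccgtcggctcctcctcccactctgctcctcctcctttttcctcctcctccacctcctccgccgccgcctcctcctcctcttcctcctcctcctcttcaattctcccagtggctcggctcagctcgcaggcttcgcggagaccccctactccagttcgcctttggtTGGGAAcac

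None of the 9 genes passed the test between crushed and fellow eyes. By limma with a variance trend, 0 of 9 had an adjusted p under 0.05 (Benjamini-Hochberg over all genes), where 0.352% of all genes were called, and 0 of 9 had an unadjusted p under 0.05, where 19.6% of all genes did. In 0 of 9 did the ONC libraries lie wholly outside the range of the Controls, against 7.83% of all genes (3.39% above and 4.44% below the Controls). Without the variance trend 0 of 9 were called as well, against 1.16% of all genes. Differences, ONC minus Control, ran from -0.30 for Notch1 to 0.41 for Sox9 on the log2 scale, with 8 above 0 and 1 below. Their median was 0.15, against -0.00062 over all genes. For each of the 9 the range among the 4 Controls was wider than the difference. The 95% intervals of all 9 include 0. The widest, that of Sox9, reaches from a fold of 0.865 to 2.05, and the narrowest, that of Pax6, from 0.953 to 1.29.

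**Figure D1:**
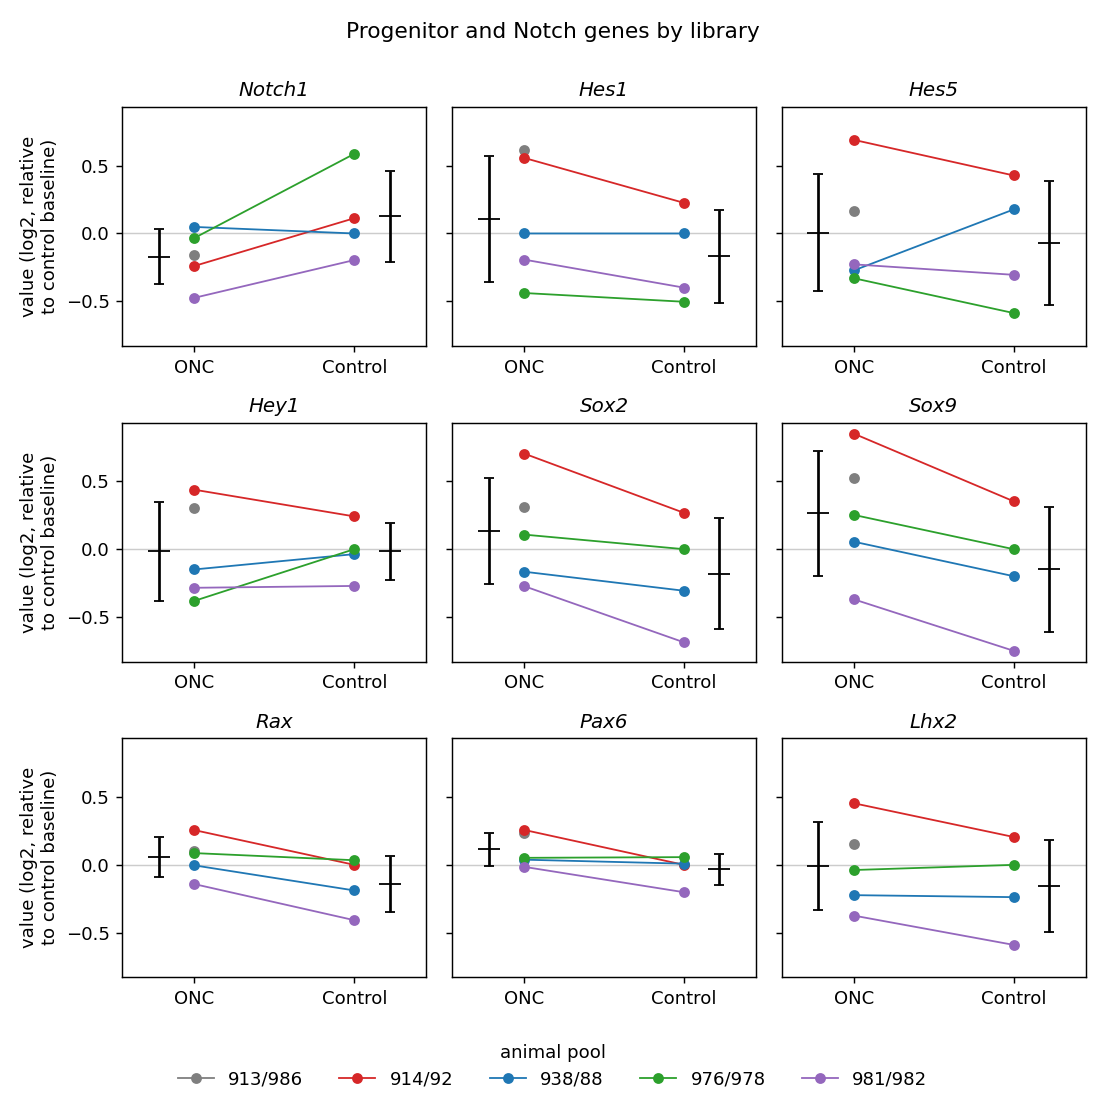
Each panel shows 1 gene, with the log2 value relative to the control baseline on the vertical axis, ONC libraries on the left and Control libraries on the right. Points are libraries, lines join libraries of 1 animal pool, and bars beside the points give mean ± SD (n = 5 ONC, n = 4 Control). The groups overlap in all 9 panels, and in Sox9 the 4 joined pairs all lie higher in ONC, by 0.25 to 0.50.

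Notch1, the receptor, had the lowest difference of the panel. It stood at -0.16, -0.24, 0.05, -0.03 and -0.47 in the ONC libraries of pools 913/986, 914/92, 938/88, 976/978 and 981/982, against 0.11, 0.00, 0.59 and -0.20 in the Controls of pools 914/92, 938/88, 976/978 and 981/982, the pool order kept for every gene below. Control 976/978 was the highest of the 9 libraries and ONC 981/982 the lowest, and the groups overlapped. The mean was -0.17 ± 0.20 (SD, n = 5) in ONC and 0.13 ± 0.33 (SD, n = 4) in Control, a difference of -0.30 ± 0.17 SE (limma adjusted p = 0.338). Within pools it was lower in ONC in 3 of 4. Without Control 976/978 the difference was -0.14. An antisense gene of the annotation (GENCODE M21), 0610009E02Rik, shares 1068 of the 14232 exon bases of Notch1, and the sources used here do not say whether counting used the strand.

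The Hes and Hey repressors are among the genes that an active Notch receptor switches on, and Notch activity itself was not measured here. Hes1, which oscillates in progenitors, stood at 0.61, 0.56, 0.00, -0.44 and -0.19 in ONC and at 0.23, 0.00, -0.50 and -0.40 in Control. ONC 913/986 and ONC 914/92 lay above every Control and the other 3 ONC libraries lay within the Control range. The means were 0.11 ± 0.46 (SD, n = 5) in ONC and -0.17 ± 0.34 (SD, n = 4) in Control, a difference of 0.28 ± 0.25 SE (limma adjusted p = 0.531). These are the Y-low ONC libraries, and the difference was -0.041 ± 0.20 SE when they were left out.

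Hes5, which is most tightly tied to Notch in neural tissue, stood at 0.17, 0.69, -0.27, -0.33 and -0.23 in ONC and at 0.43, 0.18, -0.59 and -0.30 in Control. Only ONC 914/92 lay above the Controls, and the difference was 0.077 ± 0.26 SE (limma adjusted p = 0.879). It was -0.21 ± 0.24 SE without the Y-low ONC libraries, and -0.094 without ONC 914/92 or without Control 976/978. The antisense gene Gm20421 shares 433 of the 1363 exon bases of Hes5.

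Hey1, a repressor shared by neural tissue and vessels, stood at 0.30, 0.44, -0.15, -0.38 and -0.28 in ONC and at 0.24, -0.04, 0.00 and -0.27 in Control. The ONC libraries lay on both sides of the Controls, and the means were -0.015 ± 0.36 (SD, n = 5) in ONC and -0.017 ± 0.21 (SD, n = 4) in Control. The difference was 0.0020 ± 0.19 SE (limma adjusted p = 0.997). It was lower in ONC in 3 of 4 pools, and without the Y-low ONC libraries the difference was -0.26 ± 0.135 SE.

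Sox9, needed to make and keep Müller glia, had the highest difference of the panel. It stood at 0.52, 0.85, 0.06, 0.25 and -0.37 in ONC and at 0.35, -0.20, 0.00 and -0.75 in Control. ONC 914/92 was highest and Control 981/982 lowest, and 3 of the 5 ONC libraries lay within the range of the Controls. The means were 0.26 ± 0.46 (SD, n = 5) in ONC and -0.15 ± 0.46 (SD, n = 4) in Control, a difference of 0.41 ± 0.28 SE or a fold of 1.33 (limma adjusted p = 0.412). Leaving out 1 library at a time gave 0.21 to 0.58, the low value without Control 981/982 and the high one without Control 914/92. ONC minus Control was 0.50, 0.25, 0.25 and 0.38 within pools 914/92, 938/88, 976/978 and 981/982, all above 0. With the pool as a block and no variance trend, the difference was 0.35 ± 0.08 SE (limma unadjusted p = 0.0089, adjusted p = 0.105), and without pool 914/92 it was 0.30 ± 0.09 SE (unadjusted p = 0.031, adjusted p = 0.229). Neither passed the adjusted threshold.

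Sox2, a factor of stem cells that adult Müller glia retain, followed the same libraries. It stood at 0.31, 0.70, -0.17, 0.11 and -0.27 in ONC and at 0.27, -0.31, 0.00 and -0.69 in Control. ONC 913/986 and ONC 914/92 lay above the Controls and the other 3 within them, a difference of 0.32 ± 0.24 SE (limma adjusted p = 0.463). Within pools it was higher in ONC in 4 of 4, by 0.44, 0.14, 0.11 and 0.41. With the pool as a block and no trend the difference was 0.27 ± 0.10 SE (limma unadjusted p = 0.037, adjusted p = 0.179), and without pool 914/92 the unadjusted p was 0.115. Without the Y-low ONC libraries, Sox2 differed by 0.071 ± 0.23 SE and Sox9 by 0.13 ± 0.27 SE.

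Rax, an early eye-field factor that stays on in Müller glia, had a narrower spread. It stood at 0.10, 0.26, 0.00, 0.09 and -0.14 in ONC and at 0.00, -0.19, 0.03 and -0.41 in Control. Of the ONC libraries 3 lay above all Controls and 2 within them, a difference of 0.20 ± 0.12 SE (limma adjusted p = 0.362). It was higher in ONC in 4 of 4 pools, and the difference was 0.12 ± 0.13 SE without the Y-low ONC libraries. Raxos1, on the other strand, shares 1604 of its 5846 exon bases.

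Pax6, the paired-box factor of the eye field, moved least from library to library, with a pooled SD of 0.120 that only 13.8% of all genes undercut. It stood at 0.23, 0.26, 0.04, 0.05 and -0.01 in ONC and at 0.00, 0.01, 0.06 and -0.20 in Control. The difference was 0.15 ± 0.10 SE (limma adjusted p = 0.400), with ONC 913/986 and ONC 914/92 above the Controls, and 0.059 ± 0.097 SE without these 2. Markers of amacrine cells, which also make Pax6, had a median difference of -0.30, with 13 of 13 below 0. Of these 13, limma called 0 and 2 had an unadjusted p under 0.05, against 0.352% and 19.6% of all genes. Markers of ganglion cells, which make Pax6 too, had a median difference of -0.70, with 12 of 13 below 0. Their medians were -1.19 to -0.67 in ONC and -0.24 to 0.10 in Control. Among these 13, limma called 2 lower, against 0.162% of all genes called lower. It called 6 lower with no variance trend and 4 with the pool as a block and no trend. In those fits 1.16% and 0.909% of all genes were called in either direction. The part of these neurons in the value of Pax6 was not tested.

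Lhx2, a LIM homeodomain factor that restrains gliosis in Müller glia, stood at 0.15, 0.45, -0.22, -0.04 and -0.37 in ONC and at 0.21, -0.24, 0.00 and -0.59 in Control. Only ONC 914/92 lay above the Controls, and the difference was 0.15 ± 0.20 SE (limma adjusted p = 0.683). It was 0.0050 without Control 981/982 and -0.056 without the Y-low ONC libraries.

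Considered together within pools, 4 of the 9 genes (Hes1, Sox2, Sox9 and Rax) were higher in ONC in 4 of 4 pools, where 17.9% of all genes were. The same 4 were higher in all 3 pools other than 914/92, against 22.4% of all genes, and for Hes1 the difference within pool 938/88 was only 9.3e-05. With the pool as a block and no variance trend limma called 0 of 9 at an adjusted p under 0.05, against 0.909% of all genes, and 2 of 9 (Sox2 and Sox9) had an unadjusted p under 0.05, against 24.7% of all genes. With the trend the block gave 0 calls, 2 of 9 again with an unadjusted p under 0.05, against 25.2% of all genes.

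**Figure D2:**
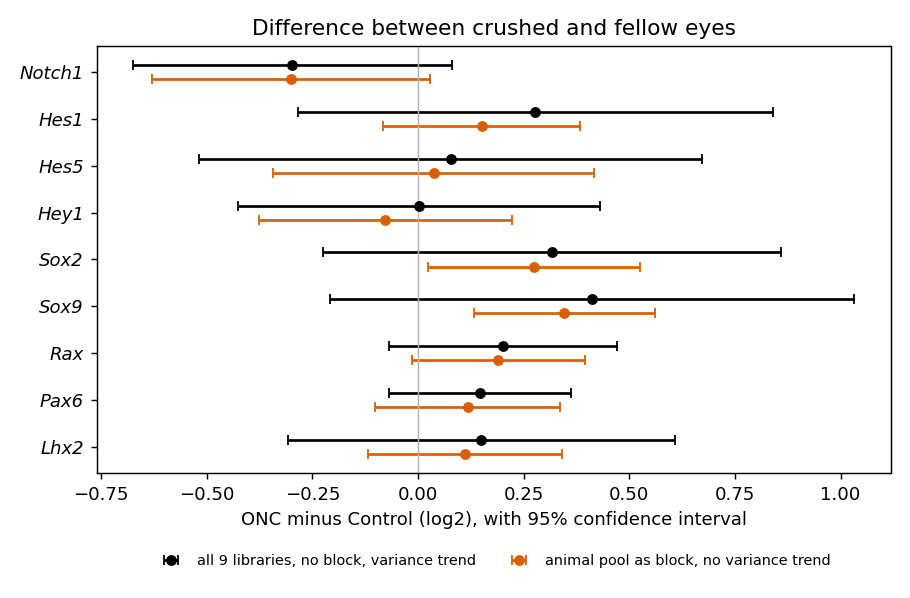
The horizontal axis gives ONC minus Control on the log2 scale for each of the 9 genes, with bars for 95% confidence intervals. Black points are the fit over all 9 libraries and orange points the fit with pools blocked and no variance trend, in which the intervals of Sox9 (0.13 to 0.56) and Sox2 (0.025 to 0.53) lie above 0.

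The medians of the members and of Müller glia markers were close in every library. The median over the 9 genes was 0.23, 0.45, 0.00, -0.03 and -0.27 in the ONC libraries, in the pool order above, against 0.23, -0.04, 0.00 and -0.40 in the Controls. The median over 13 Müller glia markers was 0.22, 0.50, 0.03, 0.02 and -0.24 in ONC and 0.21, 0.00, 0.03 and -0.47 in Control. The gap between the 2 medians ran from 0.016 to 0.072 on the log2 scale over the 9 libraries. Control 914/92 was the highest Control for 6 of the 9 genes and for 11 of the 13 markers, against 31.8% of all genes, and Control 981/982 the lowest for 7 of 9 and 12 of 13, against 35.5%. Among ONC libraries, 914/92 was highest for 7 of 9 members and 981/982 lowest for 6 of 9, against 30.8% and 27% of all genes.

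Astrocyte markers, from the other cells that Aldh1l1 marks, were also close to the members, with 5 of 6 measured. Their medians were 0.32, 0.31, 0.07, -0.11 and -0.18 in ONC and 0.24, -0.01, 0.03 and -0.50 in Control, 0.011 to 0.14 from the member median of the same library. Closeness to the member medians was thus shared by both glial marker lists.

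Photoreceptor markers had medians of -0.82, -1.09, -0.31, -0.25 and 0.10 in ONC and -0.64, 0.00, 0.00 and 0.16 in Control. They were lowest in ONC 914/92, ONC 913/986 and Control 914/92, the 3 libraries with the highest member medians. Endothelial and mural markers, relevant to Notch1 and Hey1, had medians of -0.84, -0.76, 0.13, -0.13 and 0.17 in ONC and -0.68, 0.00, 0.00 and 0.79 in Control. Microglia markers, all 13 with a difference above 0, had medians of 0.28 to 2.99 in ONC and -0.07 to 0.20 in Control, and were lowest among the ONC libraries in 914/92, where 7 of the 9 members were highest. Of these 13, 4 passed the raw-value filter in only 1 condition, and such a filter can favour the group where a gene is high. By limma 1 of the 13 was called, against 0.352% of all genes. In 5 the groups did not overlap, against 7.83% of all genes. The part of these markers in the members' values was not tested.

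**Figure D3:**
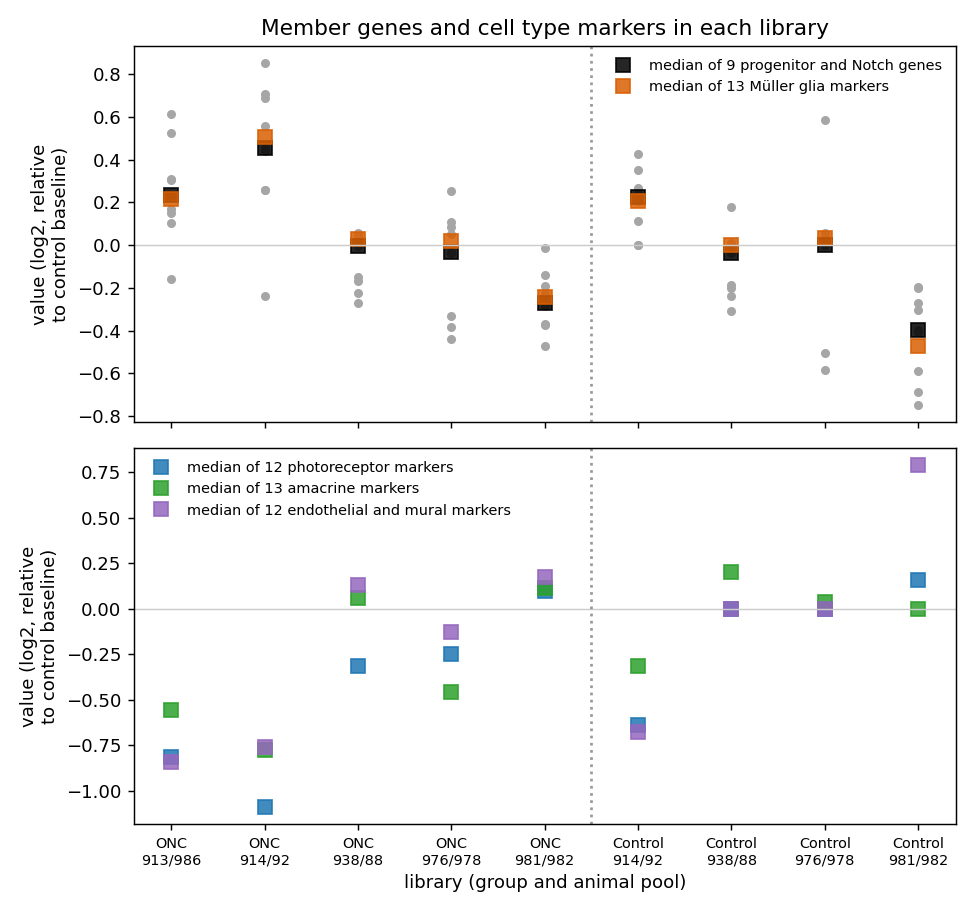
The horizontal axis lists the libraries, 5 ONC and then 4 Control, and the vertical axis gives log2 values relative to the control baseline. In the upper panel grey points are the 9 genes and squares the medians of these genes and of 13 Müller glia markers, which lie 0.016 to 0.072 apart. The lower panel shows medians of photoreceptor, amacrine, and endothelial and mural markers, with photoreceptors lowest in ONC 914/92 at -1.09.

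When each library was centred on its Müller glia marker median, differences between crushed and fellow eyes fell on both sides of 0, 4 above and 5 below. Centring shifts the difference of every gene by the same amount, so this split is not 9 separate observations. Sox9 then differed by 0.25 ± 0.15 SE (limma adjusted p = 0.559) and Sox2 by 0.16 ± 0.15 SE. Rax, Pax6 and Lhx2 differed by 0.038, -0.016 and -0.013. Hes1 differed by 0.11, Hes5 by -0.085 and Hey1 by -0.16. Notch1 came to -0.46 ± 0.20 SE (adjusted p = 0.466). On these values limma called 0 of 9, against 0.106% of all genes, and 1 of 9, Notch1, had an unadjusted p under 0.05, against 10.6% of all genes.

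Likeness among the members was measured as the root mean square difference over the 9 libraries on the log2 scale, as a description. Rax and Pax6, the members with the least spread, were the closest pair at 0.115, yet 172 genes were closer to Rax and 946 closer to Pax6. Hes1 and Hes5 lay 0.209 apart, and of all genes only 7 were closer to Hes1 than Hes5 was and only 8 closer to Hes5 than Hes1 was. Sox2 and Lhx2 lay 0.125 apart, with 19 genes closer to Sox2 and 58 closer to Lhx2. Sox2 and Sox9 lay 0.138 apart, with 34 genes closer to Sox2 and 26 closer to Sox9. Notch1 stood away from Hes1 and Hes5, at 0.55 and 0.552, with 10566 and 10592 genes closer to it. It lay nearer to Hey1, at 0.371, with 6004 genes closer. The single gene of the table most like each member was Celsr2 for Notch1 (0.0724), Fam60a for Hes1 (0.173), Hapln3 for Hes5 (0.169), Dbp for Hey1 (0.0717), Acadl for Sox2 (0.0816), Fam159b for Sox9 (0.0826), Rala for Rax (0.0474), Slc25a3 for Pax6 (0.0388) and Rcn2 for Lhx2 (0.0656).

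The rest of the Notch pathway was described from lists made by function, and by limma 0 of the 62 genes measured in its 7 lists were called, against 0.352% of all genes. Of the 62, 10 (16.1%) had an unadjusted p under 0.05, against 19.6% of all genes, and 4 (6.45%) had groups that did not overlap, against 7.83%, so neither share exceeded that over all genes. All 4 receptors had differences below 0 (median -0.35). Notch2, the receptor beside Notch1 in glia, differed by -0.40 ± 0.12 SE, with every ONC library below every Control, but did not pass (adjusted p = 0.137). Notch3, a receptor of mural cells, differed by -0.53 ± 0.48 SE, but by -0.10 ± 0.26 SE without ONC 914/92 and by -0.060 ± 0.29 SE without both Y-low ONC libraries. Of 7 ligands measured, 5 lay below 0 (median -0.24). Jag2, which binds Notch from a neighbouring cell, differed by -0.62 ± 0.36 SE. Without ONC 914/92 Jag2 differed by -0.33 ± 0.25 SE, and without both Y-low ONC libraries by -0.19 ± 0.24 SE. Dner, a neuronal Notch-binding protein, differed by -0.29 ± 0.13 SE.

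Nuclear partners of the cut receptor included the lowest difference of the pathway, with 9 of 12 below 0 (median -0.26). Spen, a corepressor that binds RBPJ, differed by -1.26 ± 0.34 SE, and Ep300, an acetyltransferase recruited with Mastermind, by -0.71 ± 0.18 SE. In both, the 5 ONC libraries lay below the 4 Controls, and neither passed (adjusted p = 0.123 and 0.108). Without the Y-low ONC libraries Spen differed by -0.85 ± 0.25 SE and Ep300 by -0.53 ± 0.17 SE. Mib1, the ligase that lets ligands be taken up and signal, differed by -0.56 ± 0.16 SE without overlap between groups (adjusted p = 0.135), and the kinase Aak1 by -0.39 ± 0.16 SE. Without the Y-low ONC libraries Mib1 differed by -0.41 ± 0.11 SE and Aak1 by -0.22 ± 0.15 SE. The 16 modulators had a median of -0.02, with 7 above 0 and 9 below.

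The enzymes that cut and modify the receptor showed small differences. Of 9 genes for cleavage, 6 lay above 0 (median 0.04), with Psenen and Aph1c, subunits of γ-secretase, at 0.23 and 0.22, and Aph1c at 0.082 without Control 938/88. Of 5 sugar transferases 4 lay above 0 (median 0.04), and Lfng, a Fringe enzyme that tunes which ligand Notch answers, differed by 0.31 ± 0.16 SE (0.20 without Control 981/982), and Poglut1, which adds glucose to Notch, by 0.16 ± 0.12 SE (0.086 without ONC 914/92). Among 9 target repressors measured the median was 0.14, with Hes6 at 0.15 and Heyl at -0.32 (-0.54 without ONC 981/982), and no member of these 3 lists had groups that did not overlap. Without the Y-low ONC libraries Psenen, Aph1c, Poglut1 and Heyl differed by 0.14, 0.15, 0.037 and -0.20.

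**Figure D4:**
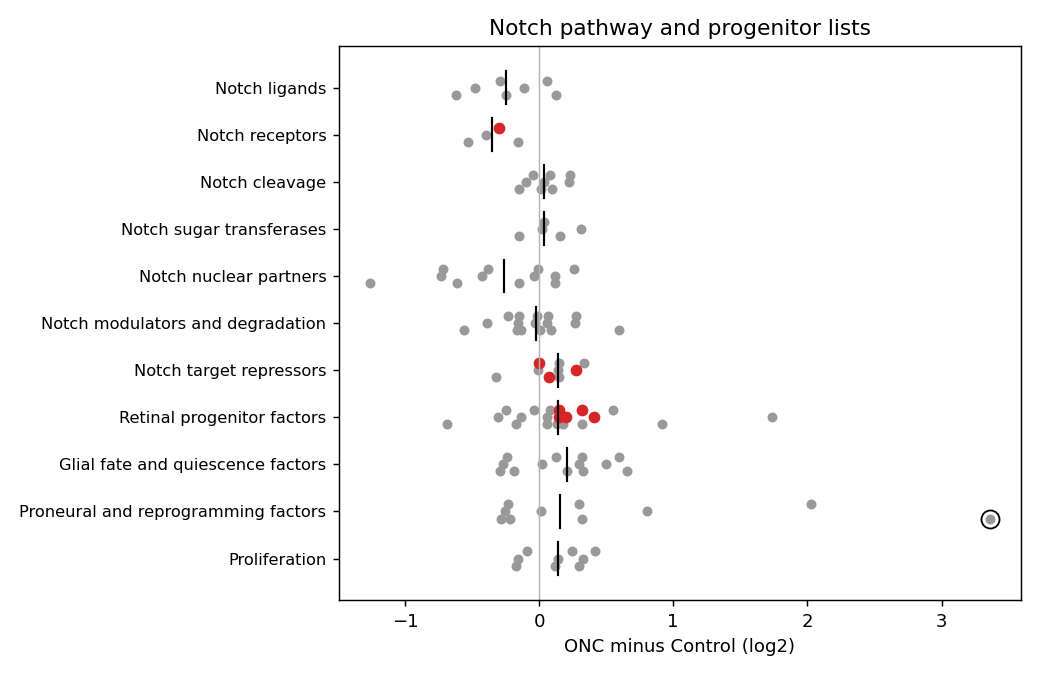
Each point is a gene, placed by its ONC minus Control difference on the log2 scale within its list, and the black bar is the median of the list. Red points are the 9 members and the ring marks the 1 gene with an adjusted p under 0.05, Sox11 at 3.36. Notch nuclear partners reach down to -1.26 and receptors lie wholly below 0.

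Beyond the Notch pathway, 1 of the 52 genes measured in the progenitor, glial fate, proneural and proliferation lists was called, against 0.352% of all genes. It is Sox11, a factor of young neurons that is also induced in injured ganglion cells, with a difference of 3.36 ± 0.33 SE (limma adjusted p = 0.012). Its call ended without Control 938/88 (adjusted p = 0.0676), without Control 976/978 (0.0751), without the Y-low ONC libraries (0.124), after quantile normalization (0.113), among genes that passed the filter in both conditions (0.106) and with the pool as a block and a trend (0.0801). Without pool 914/92 it stayed called without the block (adjusted p = 0.0418) and was lost with it (0.0659 without a trend, 0.146 with one). Stat3, which carries cytokine signals to the nucleus, differed by 0.81 ± 0.20 SE (adjusted p = 0.107). Sox4, a relative of Sox11, differed by 0.32 ± 0.12 SE.

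Of 20 progenitor factors measured, 14 lay above 0 and 6 below (median 0.14). Nes, the intermediate filament of neural progenitors that reactive glia also make, differed by 1.73 ± 0.41 SE (limma adjusted p = 0.0990). With the pool as a block and no trend Nes was called (1.67 ± 0.14 SE, limma adjusted p = 0.0317), and without pool 914/92 that call ended (adjusted p = 0.0839). It was not called with the block and a trend (limma adjusted p = 0.0801), nor with neither block nor trend (0.0830). Msi1, an RNA-binding protein of progenitors, differed by -0.25 ± 0.09 SE, with the ONC libraries below all Controls. It was 1 of 20 progenitor factors without overlap between groups, and the only 1, against 7.83% of all genes. Of 13 glial fate and quiescence factors, 9 lay above 0 (median 0.21), among them Id1, a partner that disarms proneural proteins, at 0.50 ± 0.22 SE (0.26 ± 0.20 SE without the Y-low ONC libraries), whereas Zeb1 differed by -0.29 ± 0.10 SE.

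Genes of the cell cycle gave few values. Of 13 listed, 9 were measured, 6 above 0 and 3 below (median 0.14). The symbols Mki67, Top2a, Ccnb1 and Cdk1 were not found among the rows kept by the filter, so the median leaves them out. Pcna, the sliding clamp of DNA replication, differed by 0.30 ± 0.12 SE, with every ONC library above every Control. It was the only 1 of the 9 without overlap between groups, against 7.83% of all genes. Cdk4, a kinase of G1, differed by 0.33 ± 0.15 SE, and neither Pcna nor Cdk4 passed (limma adjusted p = 0.213 and 0.260). Without the Y-low ONC libraries Pcna differed by 0.17 ± 0.10 SE and Cdk4 by 0.15 ± 0.13 SE.

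In the coordinates of the deposited table (mm10), Notch1 (gene ID 18128) lies on chromosome 2 from 26457902 to 26503822 and Hes1 (15205) on chromosome 16 from 30065357 to 30067796. Hes5 (15208) lies on chromosome 4 from 154960923 to 154962371 and Hey1 (15213) on chromosome 3 from 8663359 to 8667038. Sox2 (20674) lies on chromosome 3 from 34650005 to 34652460 and Sox9 (20682) on chromosome 11 from 112782210 to 112787757. Rax (19434) lies on chromosome 18 from 65934639 to 65939089, Pax6 (18508) on chromosome 2 from 105668896 to 105697364 and Lhx2 (16870) on chromosome 2 from 38351308 to 38369728.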

How the data were processed

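Ribosome-bound RNA of 9 libraries was compared, 5 ONC and 4 Control, grouped by the treatment label. The deposited log2 values had been normalized by the authors, per the file headers, which name no scale. That they are log2 and relative to a control baseline was read from the values: 13230 of 14194 rows have exactly 1 Control at 0. Per the file headers, rows were kept with raw values of at least 5 in all libraries of 1 of the 2 conditions, on RefSeq gene models. The submitters' processing notes name mm10 and DESeq. For the aligner and counter, the sources used here give no name, and the depth of each library is unknown.

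Under R 4.3.3, limma 3.58.1 fitted each gene's deposited value, ONC against Control, with a variance trend, no block, and two-sided p-values adjusted over all genes by Benjamini-Hochberg at 0.05. Since values are centred on Controls, the trend follows the difference under test, so fits without it are given too. Confidence intervals are at 95%. The fit was tested on simulated data. Alternatives were no trend, the animal pool as a block, other scalings, a filter, and leaving out libraries. Labels give both eyes of a pool the same animal numbers. Deviations from the group means correlated between the eyes of pools 914/92, 938/88, 976/978 and 981/982 at 0.377, 0.178, -0.0642 and 0.450 over all genes. Between ONC and Control libraries of unlike pools the correlations ran from -0.489 to 0.351, the highest for ONC 976/978 with Control 981/982. The block rests on the labels. ONC 913/986 has no partner and carries no weight in it.

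Members, lists, named genes and alternatives were chosen with earlier results of these data known. Named are the 9 members, called genes of the pathway lists, the 2 others with the smallest p in each, and the most like gene of each member. No set test was run. Replicates are pools of animals.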

Additional observations from a re-analysis of the deposited data

How the results depend on the processing

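No member was called under any of the 20 alternatives run. Of 180 recomputed differences of members, 157 kept their sign and 23 did not, in Hes1, Hes5, Hey1, Pax6 and Lhx2. The cause of these changes of sign was not tested. The 180 differences are not independent checks. Dropping the variance trend or changing the filter cannot alter a difference, so these settings repeat those of the main fit. The block fits, with or without a trend, give the same differences as leaving out ONC 913/986.

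The count of genes called over the whole table, 50, moved with the fit. With limma it was 165 with no variance trend, 129 with the replicate block and no trend, 29 with each library centred on its median, 15 with centring on Müller glia markers, and 0 with the replicate block and a trend (3574 at an unadjusted p under 0.05), after quantile normalization (1848) or with the filter passed in both conditions (2672). Leaving out 1 library at a time gave 0 to 68 calls: 4, 43, 3, 6 and 68 without ONC 913/986, 914/92, 938/88, 976/978 and 981/982, and 26, 0, 0 and 8 without Control 914/92, 938/88, 976/978 and 981/982 (1954 and 1804 unadjusted beside the 2 zeros). Alternatives chosen after seeing the data gave 20 calls with the block, no trend and pool 914/92 left out, 0 with the block, a trend and that pool left out (2630 unadjusted), and 0 without the Y-low ONC libraries (1571 unadjusted).

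Hey1 was at -0.078 with the replicate block, with or without a trend, at -0.023 after quantile normalization, -0.16 with centring on Müller glia markers, -0.025 without pool 914/92 and -0.17 with the block and without that pool. Leaving out 1 library gave Hey1 -0.11 to 0.09, with -0.078 without ONC 913/986, -0.0046 without Control 938/88 and -0.083 without Control 981/982. Hes5 was at -0.085 with centring on Müller glia markers and, under the block but leaving pool 914/92 out, at -0.039, and ran from -0.094 to 0.24 leaving out 1 library, with -0.00043 without Control 981/982. Pax6 and Lhx2 were at -0.016 and -0.013 with centring on Müller glia markers. Without the Y-low ONC libraries, Hes1, Hes5, Hey1 and Lhx2 were at -0.041, -0.21, -0.26 and -0.056. With the depth unknown, the spread among 5 and 4 libraries is the sole measure of error.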
